A study of Homo sapiens with 4 samples.

Results

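The nuclear genes for subunits of the mitochondrial respiratory chain and ATP synthase were described in U87MG cells, an established human glioblastoma line. A gene was taken as a member when its symbol on the array followed the naming of complex I (NDUFA, NDUFB, NDUFC, NDUFS and NDUFV), complex II (SDHA to SDHD), complex III (UQCR), complex IV (COX4 to COX8) or complex V, the ATP synthase (ATP5F1, ATP5M and ATP5P). This gave 81 genes of the 18132 named on the array, with 35 in complex I, 3 in complex II, 8 in complex III, 17 in complex IV and 18 in complex V. The 81 genes have 184 probe sets, and the one with the highest log2 signal on average over the arrays stands for its gene. The subunit genes SDHB and UQCRFS1 and the subunits encoded in mitochondrial DNA were not analysed here.

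The cells were grown with fetal bovine serum and received 1 of 4 treatments for 24 h. The control had DMSO alone. A second culture had mycophenolic acid (MPA) at 10 µM, the next had guanosine at 100 µM, and the last had MPA at 10 µM with guanosine at 100 µM. MPA inhibits IMP dehydrogenase, which makes the precursor of guanine nucleotides, and guanosine can refill those nucleotides by salvage. The series title concerns IMP dehydrogenase-2 and the nucleolus, and each comparison asks how an array of one treatment differed from that of another. Total RNA of each condition was hybridised to 1 Affymetrix PrimeView array, so there were 4 arrays, no replicates and no spread within a condition. Every difference given is between 2 arrays, no p-value was computed, and precision is limited by how few arrays there were.

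Oxidative phosphorylation is the last stage of respiration. Complexes I and II feed electrons from NADH and succinate to coenzyme Q, complex III passes them to cytochrome c, complex IV gives them to oxygen, and complex V uses the proton gradient across the inner membrane to make ATP. A few core subunits carry the cofactors and do the chemistry, while many accessory subunits surround them and are needed for assembly and stability. Most subunits are encoded in the nucleus, and the transcription factors NRF1 and GABPA (an ETS-family protein, also called NRF-2) are known to bind many of their promoters in human cells.

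A dimness floor was set at the median signal of all probe sets, 5.98 on the log2 scale, and a gene was compared if at least the brighter array of the pair reached it. Of the 81 genes, 76 passed this floor in each of the 6 comparisons. The other 5 were below it on all 4 arrays: COX4I2, COX7A1, COX7B2 and COX8C, forms of complex IV subunits known from lung, muscle or testis, and ATP5MGL, a copy of the ATP synthase gene ATP5MG. Their signals were between 7.17 (COX7B2, guanosine array) and 47.2 (COX4I2, MPA array), and no fold is given for them. The probe sets of 15 members end in _x_at, which marks probes that can bind transcripts of several genes.

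The arrays had median signals of 61.8 to 64.5. The p53 target genes CDKN1A and GDF15 were higher on the MPA array than on the control array by 1.59 and 2.89 log2, and MYC was lower (-1.48). The glioma markers VIM (signal 19783 in the control) and CD44 (6286) were well above the floor and S100B and AQP4 were below it on all arrays. The median over 5 of 7 markers of astrocytes and glioma was -0.11 for MPA against control. The leukocyte marker PTPRC was below the floor on all arrays (10.3 to 11.7), as was the endothelial marker CDH5 (23.4 to 25.7). Of the marker lists of other cell types, 1 of 4 leukocyte, 3 of 4 endothelial, 3 of 4 epithelial and 4 of 4 neuron genes passed the floor on the MPA or the control array, with medians of 0.64, 0.29, 0.16 and 0.24, and their part in the results was not tested. Control probes also moved on the MPA array. The 12 poly-A spike-in probe sets were all lower there than on the control array (median -0.29) and all higher on the guanosine array (0.22), and 6 sets of GC-rich background probes were higher on the MPA array (0.26). The part of these shifts in the differences of the subunit genes was not tested.

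On the MPA array most subunit genes were slightly brighter than on the control array. Of the 76 genes compared, 63 were higher and 13 lower, which is 82.9% higher beside 50.8% of all 11204 genes compared. The median log2 difference was 0.12, beside 0.0062 over all genes, and the members ran from -0.41 to 0.32. The differences were small. At least 1.2-fold higher were 5 members, where 19.2% of all genes were, and at least 1.2-fold lower were 2, where 22.6% of all genes were. No member reached 1.5-fold in either direction, a size that 12.6% of all genes reached. Since RNA of whole cultures was measured, fewer cells of a kind and less RNA per cell cannot be told apart. The SD of the members' log2 differences was 0.14 and that of all genes 0.42. With a further normalisation by cyclic loess the split at 1.2-fold was 16 higher and 1 lower, with a median of 0.18, so the small upward shift kept its direction and the count at this size depended on the scaling.

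**Figure D1:**
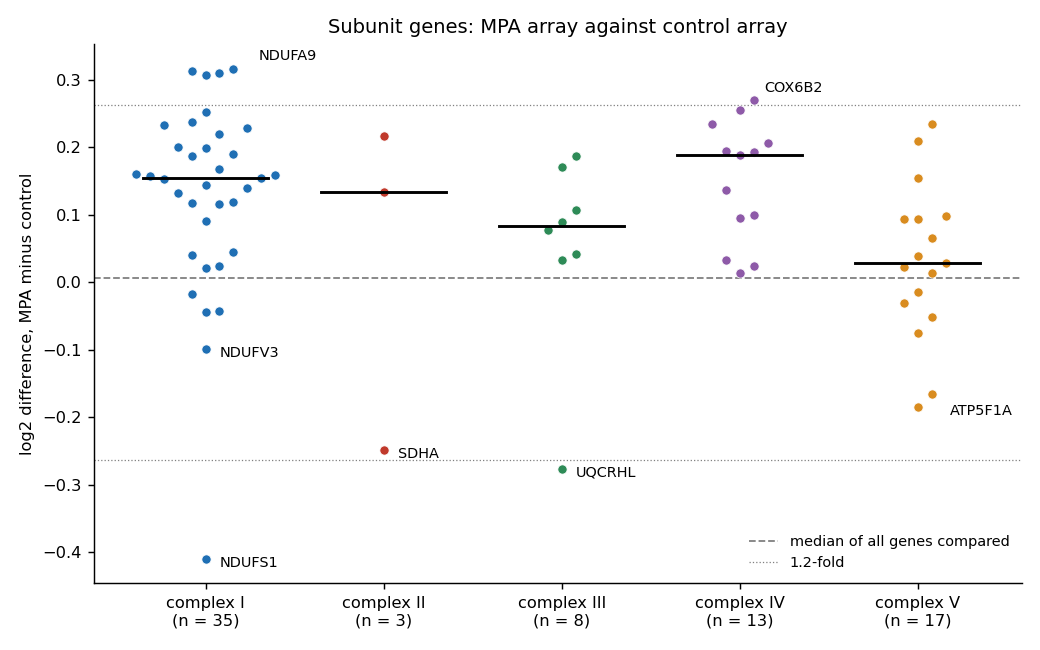
Log2 difference between the MPA and the control array (vertical axis) for the 76 subunit genes above the floor, by complex. Each point is a gene, black bars are medians, the dashed line is the median of all genes compared and the dotted lines mark 1.2-fold; complexes I and IV have the highest medians (0.15 and 0.19) and NDUFS1 is the lowest gene (-0.41).

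The shift was also seen among bright genes alone. Of all 2124 genes with a mean log2 signal of at least 10, 920 were higher and 1203 lower on the MPA array, with a median of -0.04. Among the 72 subunit genes that bright, 60 were higher and 12 lower, with a median of 0.12. Bright genes also differed less in size than all genes. Of the 2124, 249 were at least 1.2-fold higher and 515 lower, and 51 and 143 at 1.5-fold, with an SD of 0.34. Of the 72 subunit genes, 4 were 1.2-fold higher and 1 lower, with an SD of 0.13. The MPA array was the highest of the 4 for 49 of the 76 members (64.5%), beside 41.3% of all 11272 genes that passed the floor on any array. It was the lowest for 10 members (13.2%), beside 41.7% of all genes. The control array was the lowest of the 4 for 40 members (52.6%), beside 22.0% of all genes.

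Promoters of the members were searched for letters like those bound by the known regulators, because the genes moved by small amounts mostly in 1 direction with MPA. Sequences are from RefSeq (GRCh38.p14), 250 bases before the gene's start, and 66 of the 81 members were in the table. The motifs were TGCGCA, the core of the NRF1 site, which reads the same on both strands, and CCGGAAG, an ETS-type site as bound by GABPA, searched on both strands; a match of one cannot overlap a match of the other. The promoters of the highest complex I genes, NDUFA9 and NDUFA3, and of NDUFS1 and SDHA, both lower with MPA, are shown 5′ to 3′ in the gene's direction, with the motifs in capitals.
NDUFA9 (chr12:4648864-4649113, plus strand): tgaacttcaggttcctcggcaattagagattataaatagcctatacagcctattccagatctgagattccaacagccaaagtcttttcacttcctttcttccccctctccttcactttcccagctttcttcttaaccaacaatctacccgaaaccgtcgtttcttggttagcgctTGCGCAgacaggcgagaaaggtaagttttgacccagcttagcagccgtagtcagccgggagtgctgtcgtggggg
NDUFA3 (chr19:54102605-54102854, plus strand): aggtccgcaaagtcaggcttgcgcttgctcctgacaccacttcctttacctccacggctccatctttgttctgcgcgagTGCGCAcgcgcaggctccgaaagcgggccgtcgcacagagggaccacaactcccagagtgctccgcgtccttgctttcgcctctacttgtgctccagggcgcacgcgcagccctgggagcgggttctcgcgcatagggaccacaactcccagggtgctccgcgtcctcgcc
NDUFS1 (chr2:206159445-206159694, minus strand): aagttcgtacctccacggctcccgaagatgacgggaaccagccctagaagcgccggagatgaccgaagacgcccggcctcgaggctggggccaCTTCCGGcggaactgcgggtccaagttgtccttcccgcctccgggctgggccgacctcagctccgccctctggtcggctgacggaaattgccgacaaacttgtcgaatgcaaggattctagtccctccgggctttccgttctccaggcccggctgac
SDHA (chr5:218070-218319, plus strand): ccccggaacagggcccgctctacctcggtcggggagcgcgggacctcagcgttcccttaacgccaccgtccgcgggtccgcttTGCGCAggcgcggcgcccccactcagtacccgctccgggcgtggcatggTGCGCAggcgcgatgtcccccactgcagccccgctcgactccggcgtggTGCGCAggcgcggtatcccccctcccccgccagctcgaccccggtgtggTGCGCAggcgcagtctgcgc
NDUFA9 and NDUFA3 each held 1 TGCGCA, SDHA held 4, and NDUFS1, shown for the first of its 2 starts in the table, held 1 CCGGAAG on the other strand, so that its capitals are the reverse complement.

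TGCGCA was in 18 of the 66 member promoters (27.3%), beside 8.28% of 27305 genes in the table and 13.7% of the 9258 genes that were also compared on the arrays. CCGGAAG was in 17 (25.8%), beside 10.2% and 18.7%. Either motif was in 32 (48.5%), beside 17.1% and 29.6%, and 3 members, COX5B, COX6A1 and SDHD, held both. Members higher with MPA held a motif in 25 of 54 promoters and members lower with MPA in 6 of 10. A match is a description of the letters and does not show that a factor was bound there.

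In complex I, the entry point for electrons from NADH, 30 of 35 genes were higher with MPA and 5 lower, with a median log2 difference of 0.15. This count was not particular to MPA alone. From the same control array, 28 of 35 were higher with both compounds (median 0.07) and 23 of 35 with guanosine alone (0.02). For both compounds against guanosine it was 30 of 35 (0.05). Of all genes, 50.8% were higher with MPA, 54.1% with both and 49.4% with guanosine, and 58.8% for both against guanosine. The 4 genes past 1.2-fold higher were all accessory subunits, which make up 29 of the 35 genes, and 19.2% of all genes were past that size. NDUFA9, which helps to hold the site where coenzyme Q is reduced, had a signal of 1871 in the control, 2330.2 under MPA, 1712 under guanosine and 1746 under both. The MPA array was the highest and both guanosine arrays were below the control, and the log2 difference of MPA from control was 0.32 (1.25-fold). NDUFA3, a small membrane subunit, had 2935 in the control, 3644 under MPA, 3049.7 under guanosine and 3157 under both. NDUFA7, an accessory subunit of the arm that lies in the matrix, had 1652 in the control, 2047 under MPA, 1735 under guanosine and 1794 under both. NDUFB5, a membrane-arm subunit, had 1922 in the control, 2377 under MPA, 1924 under guanosine and 1933 under both. For these 3 genes the MPA array stood above the other 3 arrays, which lay close together, and the differences from control were 0.31, 0.31 and 0.31 log2. NDUFA3 was also higher with MPA by its other probe sets (0.33, 0.28 and 0.17) and NDUFB5 by its second one (0.20), while NDUFA9 and NDUFA7 had 1 probe set each.

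**Figure D2:**
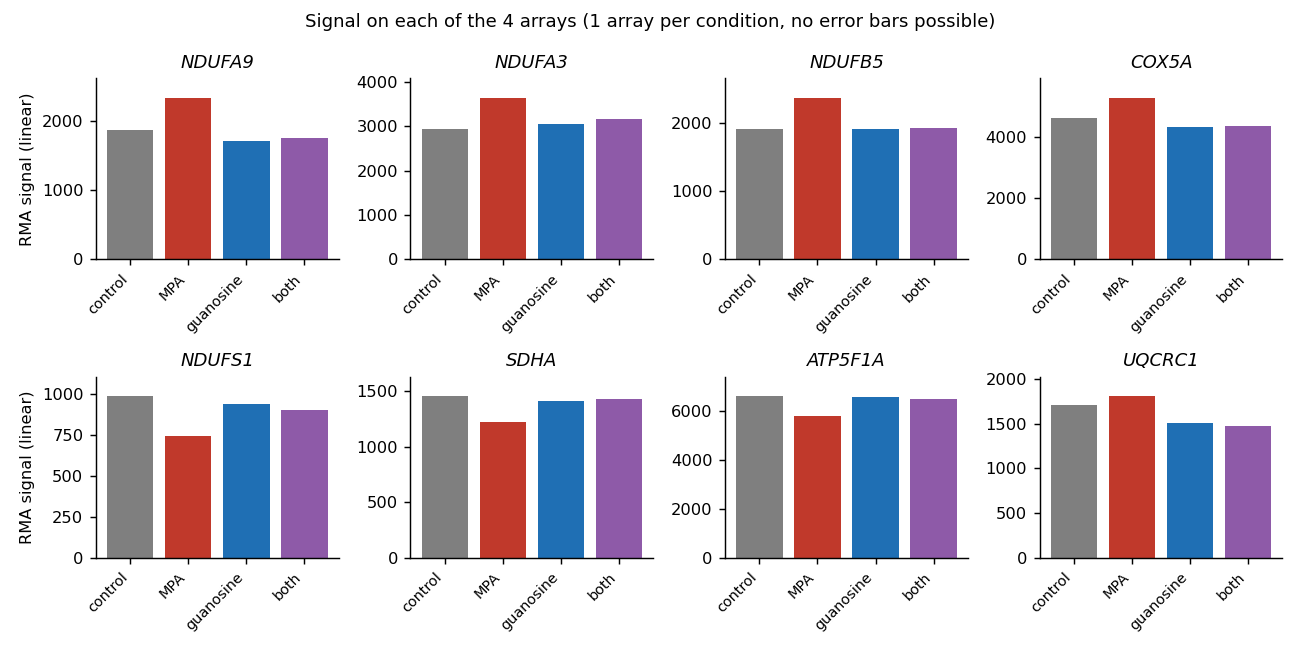
RMA signal on a linear scale (vertical axes, from 0) of 8 subunit genes on each of the 4 arrays; each bar is 1 array, so there are no error bars. NDUFA9, NDUFA3, NDUFB5 and COX5A are highest on the MPA array, NDUFS1, SDHA and ATP5F1A are lowest there, and UQCRC1 is lower on both arrays with guanosine.

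Among the other accessory subunits of complex I, NDUFS6, which carries zinc and is needed late in assembly, had signals of 3522 in the control, 4194 under MPA, 3289.5 under guanosine and 3483 under both. NDUFA8, a subunit on the intermembrane side, had 5302 in the control, 6231 under MPA, 4971 under guanosine and 5238 under both. Both genes were highest with MPA and lower with guanosine alone than in the control, with differences of 0.25 and 0.23 log2 for MPA and -0.10 and -0.09 for guanosine. NDUFB2 (0.24), NDUFA13 (0.23), also known as the cell death regulator GRIM-19, and NDUFB11 (0.22) were also higher with MPA, and NDUFS4, an accessory subunit of the matrix arm often mutated in Leigh syndrome, differed by 0.17. Of the 29 accessory genes, 26 were higher with MPA, with a median of 0.15 and a range of -0.10 to 0.32. The 3 lower ones were NDUFV3 (-0.10), NDUFA6 (-0.04) and NDUFB10 (-0.02). NDUFV3 has splice forms with and without a long exon, and its other probe sets went the other way (0.72 and 0.25), so its direction depended on the probe set.

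The core subunits of complex I carry the flavin and the iron-sulphur clusters. NDUFS1, the largest of them, which holds several clusters of the chain, had signals of 989 in the control, 744 under MPA, 943 under guanosine and 906 under both. The MPA array was the lowest of the 4 and the control the highest, and NDUFS1 was the lowest of the 76 members at -0.41 log2 (1.33-fold lower). Its 3 other probe sets above the floor gave -0.36, -0.33 and -0.47. NDUFV1, which binds NADH and the flavin, had 1238 in the control, 1381 under MPA, 1213 under guanosine and 1271 under both, a difference of 0.16 in the opposite direction to NDUFS1. NDUFS3 (0.20) and NDUFS7 (0.20), both of the part that leads electrons to coenzyme Q, were higher as well, while NDUFS8 (0.04) and NDUFV2 (-0.04) lay near 0. The 6 core genes thus did not move as a group, with 4 higher and 2 lower and a median of 0.10.

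Complex II, or succinate dehydrogenase, is also an enzyme of the citrate cycle, and its members split. SDHA, the flavoprotein that oxidises succinate, had signals of 1457 in the control, 1227 under MPA, 1409.5 under guanosine and 1436 under both, with the MPA array below the other 3. The difference of SDHA, whose promoter held the repeated TGCGCA, was -0.25 log2, and -0.21 by its other probe set above the floor. The reading is uncertain because SDHA has near-identical pseudogene copies and both of these probe sets are of the _x_at kind. Another probe set, below the floor, gave 0.18. SDHC, a membrane anchor that helps to bind coenzyme Q, had 1467 in the control, 1703 under MPA, 1449.7 under guanosine and 1593 under both, a difference of 0.22 with MPA. The other anchor, SDHD, had 964 in the control, 1058 under MPA, 943 under guanosine and 898 under both, a difference of 0.13. By the probe sets used, the catalytic subunit was lower and both anchors were higher on the MPA array, with SDHA uncertain.

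In complex III, which passes electrons from coenzyme Q to cytochrome c, 7 of 8 genes were higher with MPA and the median was 0.08. Against the same control array, 7 of 8 were higher with both compounds (median 0.07) and 6 of 8 with guanosine alone (0.05). MPA against guanosine was split, with 4 higher and 4 lower. The core proteins, which build the matrix side of the complex, had small differences. UQCRC1 had signals of 1715 in the control, 1809 under MPA, 1503 under guanosine and 1475 under both. Here the arrays with guanosine were the low ones, -0.19 and -0.22 log2 from control, while MPA alone differed by 0.08. UQCRC2 had 2958 in the control, 3046 under MPA, 3073 under guanosine and 3044 under both, all within 0.06 log2 of the control, and its other probe set gave -0.10 with MPA. The small subunits UQCR10 (0.19), UQCRQ (0.17), UQCRH (0.11), UQCR11 (0.09) and UQCRB (0.03) were higher with MPA in 5 of 5 cases by the probe set used, with another probe set of UQCRB at -0.20. UQCR11 was highest with both compounds, at 3315 in the control, 3527 under MPA, 3700.3 under guanosine and 3811 under both. By its other, dimmer probe set it was highest with MPA, with differences from control of 0.27 (MPA), 0.04 (guanosine) and 0.14 (both).

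The exception in complex III was UQCRHL, a gene that is nearly identical to UQCRH, the hinge protein that helps cytochrome c to bind. Its signal was 1815 in the control, 1498 under MPA, 1875 under guanosine and 2226 under both. It was lowest on the MPA array (-0.28 log2 from control) and highest on the array of both compounds (0.29). UQCRH itself had 5777 in the control, 6219.9 under MPA, 5716 under guanosine and 5881 under both and did not share this order. The UQCRHL probe set ends in _x_at and its probes may also bind UQCRH, so this reading is uncertain.

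In complex IV, or cytochrome c oxidase, all 13 genes above the floor had a higher signal with MPA than in the control, with a median of 0.19 and a range of 0.01 to 0.27. From the same control array, 10 of 13 were also higher with guanosine alone (median 0.04) and 10 of 13 with both compounds (0.08). Of all genes, 50.8% were higher with MPA, 49.4% with guanosine and 54.1% with both. COX5A, a subunit on the matrix side, had signals of 4653 in the control, 5301 under MPA, 4351 under guanosine and 4389.7 under both. COX5B, which carries a zinc ion, had 3945 in the control, 4511 under MPA, 4206 under guanosine and 4367 under both. COX8A, a small membrane subunit, had 7022 in the control, 8098 under MPA, 7225 under guanosine and 7452 under both. The MPA array was the highest for each of the 3 genes, with differences of 0.19, 0.19 and 0.21 log2, and COX5A was lower with guanosine alone while COX5B was higher (-0.10 and 0.09). COX7A2, the general form of a subunit at the surface where complexes meet, had 5252 in the control, 6177 under MPA, 5737 under guanosine and 5867 under both. COX7A2L, a related protein that joins complexes III and IV into supercomplexes, had 2015 in the control, 2404 under MPA, 2143 under guanosine and 2210.0 under both. Both were lowest in the control and highest with MPA (0.23 and 0.25), and COX7A2L was higher by 0.40 by its second probe set. COX4I1, a subunit that takes part in regulation by ATP, had 5648 in the control, 5699 under MPA, 5637 under guanosine and 5853 under both and differed least, by 0.01 with MPA.

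The 10 general complex IV subunits had a median of 0.16. Of the tissue forms, 2 passed the floor and both stayed near it. COX6B2, the form known from testis, had signals of 71.8 in the control, 86.5 under MPA, 74.0 under guanosine and 65.3 under both. COX6A2, the heart and muscle form, had 88.4 in the control, 90.5 under MPA, 78.2 under guanosine and 68.6 under both. Both were lowest on the array of both compounds, and on all arrays their signals were close to the floor. The other probe sets of COX6B2, below the floor, gave -0.02 and -0.05 for MPA against control. The gene COXFA4, formerly NDUFA4 and now counted with complex IV, was outside the naming rule. It had signals of 7299.7 in the control, 9272 under MPA, 7521 under guanosine and 7651 under both, the MPA array being the highest, with 0.34 log2 for MPA against control and 0.37 by its other probe set.

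In complex V, the ATP synthase, the median was 0.03, with 11 genes higher and 6 lower, and the direction differed between parts of the enzyme. In the F1 head and central stalk, where ATP is made, 4 of 5 genes were lower with MPA and the median was -0.05. With guanosine alone, 4 of 5 were lower than control as well, with a median of -0.05, so this count was not particular to MPA. ATP5F1A, the alpha subunit, had 6599 in the control, 5807 under MPA, 6568 under guanosine and 6496 under both, the MPA array being the lowest (-0.18 log2, and -0.12, -0.14 and -0.03 by its other probe sets). ATP5F1B, the catalytic beta subunit, had 6271 in the control, 6140.0 under MPA, 6028 under guanosine and 5905 under both, the largest difference from control being -0.09 log2 with both compounds. ATP5F1D, the delta subunit of the stalk, was at -0.17 log2 with MPA, and at -0.17 and -0.22 by its other probe sets. The gamma subunit ATP5F1C (-0.05, and -0.02 and 0.02 by its other probe sets) and the epsilon subunit ATP5F1E (0.02) were near 0.

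The ring of c subunits, which turns as protons pass, is encoded by 3 genes that give the same mature protein, and all 3 were higher with MPA. ATP5MC1 had signals of 1815 in the control, 2097 under MPA, 1949.8 under guanosine and 2039.7 under both. ATP5MC2 had 4088 in the control, 4807 under MPA, 4000.4 under guanosine and 4147 under both. ATP5MC3 had 8034 in the control, 8255 under MPA, 7757 under guanosine and 8025 under both. The differences for MPA were 0.21, 0.23 and 0.04 log2, and ATP5MC1 was also higher with both compounds (0.17) while ATP5MC2 was not far from control there (0.02). In the peripheral stalk, which keeps the head from turning, ATP5PD (0.09), ATP5PF (0.09), ATP5PO (0.03) and ATP5PB (0.01) were all higher by small amounts, with the second probe set of ATP5PO at -0.08. Of the other membrane subunits, ATP5MJ (0.15), ATP5MG (0.10) and ATP5MF (0.07) were higher and ATP5ME (-0.08) and ATP5MK (-0.01) lower. ATP5MG gave larger differences by its other, dimmer probe sets (0.39 and 0.36), and ATP5ME was higher by its other probe set (0.04).

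**Figure D3:**
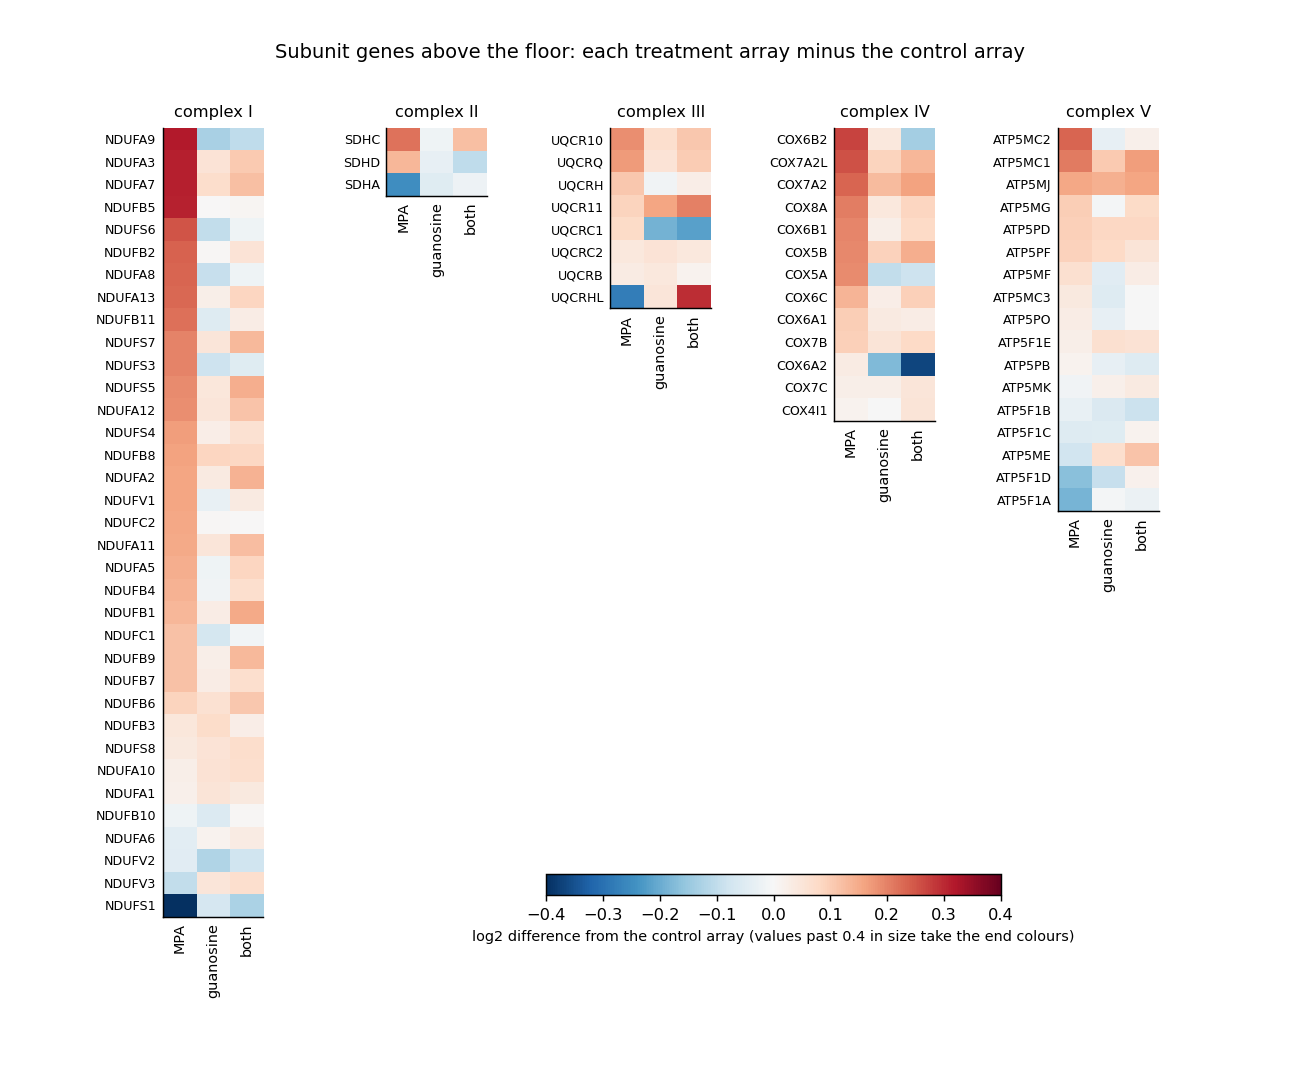
Log2 difference of each treatment array from the control array for the 76 subunit genes above the floor, 1 panel per complex and genes ordered by the MPA value; red is higher and blue lower than control, and values past 0.4 in size take the end colours. Most genes are red in the MPA column and pale in the guanosine column, with NDUFS1, SDHA, UQCRHL, ATP5F1A and ATP5F1D blue under MPA.

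The agreement between probe sets bears on these small values. Of the members, 43 had at least 1 further probe set above the floor, and 66 of their 79 further probe sets had the same sign for MPA against control as the probe set used. NDUFB4 and SDHD each have a pair of probe sets with identical values on all arrays, which are not separate readings. The arrays of guanosine and of both compounds were the closest pair, and 95% of all genes differed between them by at most 0.199 log2. The MPA against control difference exceeded that size for 20 members, 17 higher and 3 lower, beside 53.3% of all genes (25.4% higher and 27.8% lower). The closest pair differs by MPA and is not a pair of replicates. Its SD was 0.097 over all genes but 0.053 over genes with a mean log2 signal of at least 10. Since 72 members are that bright, the size is a wide one for them.

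Guanosine alone left the subunit genes close to the control. Their median log2 difference was 0.02 and their range -0.19 to 0.16, with 46 higher and 30 lower, 60.5% higher beside 49.4% of all 10919 genes. No member was 1.2-fold higher or lower, where 5.67% and 3.91% of all genes were, and 0.449% of all genes reached 1.5-fold. The lowest were UQCRC1 (-0.19), COX6A2 (-0.18) and NDUFA9 (-0.13), and the highest UQCR11 (0.16), ATP5MJ (0.14) and COX7A2 (0.13). The other probe set of UQCR11 gave 0.04. ATP5MJ, a small membrane protein of the ATP synthase, had signals of 4478 in the control, 4984 under MPA, 4946 under guanosine and 4997 under both, the control being the lowest, but its other probe sets above the floor gave 0.07, -0.03, -0.08 and 0.06 for guanosine against control. By complex, the medians for guanosine against control were 0.02 (I), -0.03 (II), 0.05 (III), 0.04 (IV) and -0.0068 (V).

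The array of both compounds was compared with each of the other 3. Against control the members' median was 0.05, with 58 higher and 18 lower (76.3% higher, beside 54.1% of all 10931 genes). At 1.2-fold, 1 member was higher, UQCRHL (0.29), and 1 lower, COX6A2 (-0.37), beside 7.52% and 4.06% of all genes, and 0.558% of all genes reached 1.5-fold. Behind UQCRHL came UQCR11 (0.20) and ATP5MC1 (0.17), and above COX6A2 at the low end came UQCRC1 (-0.22) and COX6B2 (-0.14). Among the genes that had stood out with MPA alone, NDUFA9 was at -0.10 from control, NDUFB5 at 0.0079, NDUFS1 at -0.13 and SDHA at -0.02.

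Adding MPA to guanosine gave small differences. Both compounds against guanosine had a member median of 0.04 and an SD of 0.06, with 59 higher and 17 lower (77.6% higher, beside 58.8% of all 10861 genes). No member reached 1.2-fold, where 1.16% of all genes were higher and 0.810% lower, and 0.0184% of all genes reached 1.5-fold. The highest were UQCRHL (0.25), SDHC (0.14) and NDUFB1 (0.12), a small membrane subunit of complex I, and the lowest COX6A2 (-0.19), COX6B2 (-0.18) and SDHD (-0.07). This comparison and MPA against control share no array. For NDUFA9 the MPA difference was 0.32 without guanosine and 0.03 with it, for NDUFA3 0.31 and 0.05, for NDUFS1 -0.41 and -0.06, and for SDHA -0.25 and 0.03. Whether the MPA difference itself differed with guanosine could not be tested with 1 array per condition.

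**Figure D4:**
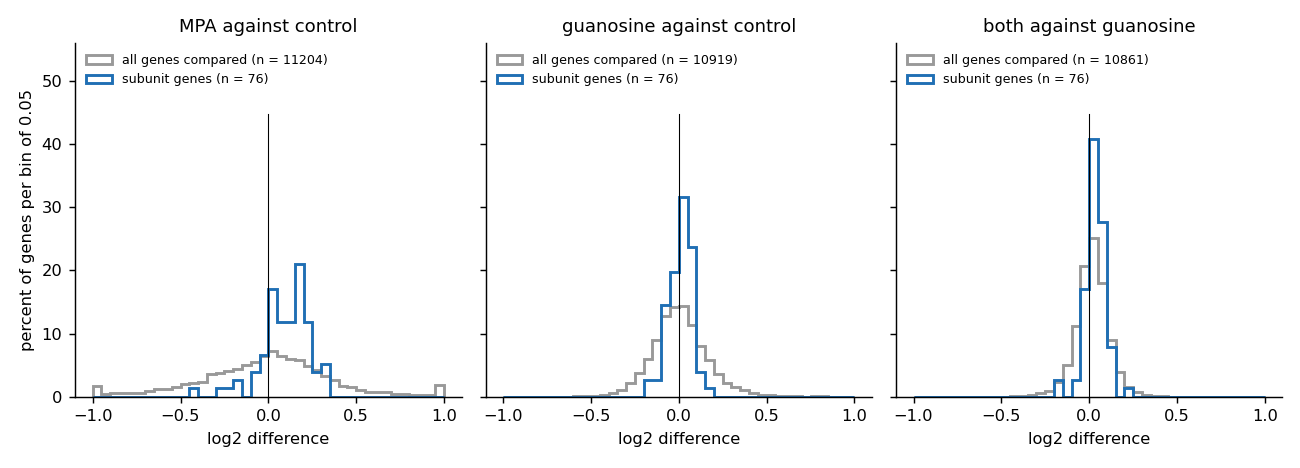
Distribution of log2 differences (horizontal axes, bins of 0.05, values past 1 in size in the end bins) as percent of genes (vertical axis), for the 76 subunit genes and for all genes compared, in 3 comparisons. The subunit genes lie to the right of 0 with MPA against control (median 0.12) and close to 0 with guanosine against control (0.02) and both against guanosine (0.04).

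The remaining comparisons share the MPA array with MPA against control, so their values are given side by side and not as separate evidence. Both compounds against MPA alone had a member median of -0.05, with 22 higher and 54 lower (28.9% higher, beside 51.8% of all 11215 genes). At 1.2-fold, 2 were higher and 7 lower, beside 25.8% and 20.9% of all genes, and 13.2% of all genes reached 1.5-fold; with cyclic loess it was 1 higher and 14 lower. The lowest were NDUFA9 (-0.42), COX6B2 (-0.41) and COX6A2 (-0.40), and the highest UQCRHL (0.57), NDUFS1 (0.28) and SDHA (0.23). By complex the medians were -0.07 (I), -0.10 (II), -0.05 (III), -0.07 (IV) and -0.02 (V).

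MPA against guanosine had a member median of 0.10, with 58 higher and 18 lower (76.3% higher, beside 50.2% of all 11206 genes). At 1.2-fold, 9 were higher and 2 lower, beside 20.5% and 24.0% of all genes, and 12.6% of all genes reached 1.5-fold; with cyclic loess it was 15 higher and 0 lower. The highest were NDUFA9 (0.45), NDUFS6 (0.35) and NDUFA8 (0.33), and the lowest NDUFS1 (-0.34), UQCRHL (-0.32) and SDHA (-0.20).

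Other genes of the pathway were compared on the same arrays in 11 lists. Their differences between the MPA and the control array follow, and their counts stand beside 50.8% of all genes compared that were higher and 49.1% lower, or 43.3% and 56.6% of bright genes. Of the assembly factors of complex I, 9 of 17 were higher and 8 lower (median 0.04), from NDUFAF4 (-0.42) to NDUFAF8 (0.26). For complexes II and III, 7 of 10 were higher (median 0.09), from BCS1L, which inserts the Rieske protein (-0.38), to UQCC1 (0.50). Of 23 assembly factors of complex IV, 10 were higher and 13 lower (median -0.07), although its subunits above the floor were all higher. The lowest was LRPPRC, which stabilises mitochondrial mRNAs (-0.44), although its other probe sets were near 0 (-0.09 and 0.02). The copper-delivery protein SCO1 was at -0.41 and its relative SCO2, a p53 target, at 0.18, and COX14 was the highest (0.60). Of 4 ATP synthase assembly or inhibitor genes above the floor, 3 were higher, with TMEM242 at 0.27 and ATPAF1 at -0.03 (0.34, -0.18 and 0.02 by its other probe sets).

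CYCS, the gene of cytochrome c, had signals of 6829.7 in the control, 5566 under MPA, 6977 under guanosine and 6979.8 under both, the MPA array being the lowest (-0.30 log2). Its other probe sets differed in sign, -0.31 and 0.06. Among genes of coenzyme Q synthesis, PDSS1 was lowest at -0.94, but 0.23 by another probe set, and COQ8A was highest at 0.58, and 9 of 14 genes of this list were higher in all. Of 6 genes of the ADP and phosphate carriers and the outer membrane channel, 4 were higher and 2 lower (median 0.11). The carriers were all higher, SLC25A4 at 0.40, SLC25A3 at 0.24 and SLC25A5 at 0.16, while the channel genes VDAC1, VDAC2 and VDAC3 were at -0.26, -0.15 and 0.06, of which the last 2 were named after their values were seen.

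Of 13 genes of mitochondrial transcription and DNA maintenance, 4 were higher and 9 lower, with a median of -0.18. TFAM, which packages mitochondrial DNA and starts its transcription, had signals of 294 in the control, 215 under MPA, 278 under guanosine and 261 under both, and was lower with MPA by its other probe sets too (-0.63 and -0.70, beside -0.45). The helicase TWNK (-0.63) and the transcription factor TFB2M (-0.62) were the lowest, and MTERF1 (0.42) the highest. Of 22 genes of protein import, 14 were lower, a share of 63.6% that is not far from that of bright genes (median -0.09), among them the chaperone HSPD1 (-0.81) and the channel TOMM40 (-0.68), and TIMM8A was the highest (0.17). Against MPA alone, the array of both compounds was higher for 8 of 13 genes (61.5%) of the first list and 16 of 22 (72.7%) of the second. The medians were 0.19 and 0.12, beside 51.8% higher of all genes and 59.4% of bright genes (median 0.05). This comparison shares the MPA array with the values above, so it is not separate evidence. Of 20 genes of the citrate cycle and pyruvate dehydrogenase, 9 were higher and 11 lower, from DLAT (-0.63) to PDK2 (0.32).

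The nuclear regulators of mitochondrial genes had the widest range of these lists, with 5 of 12 higher and 7 lower and a median of -0.17. PPARGC1A, the coactivator PGC-1 alpha that drives mitochondrial biogenesis, had signals of 75.2 in the control, 265 under MPA, 71.1 under guanosine and 70.1 under both. It was 3.53-fold higher with MPA (1.82 log2), and the other 3 arrays were close to the floor. NRF1 had 134 in the control, 85.6 under MPA, 113 under guanosine and 109 under both, lowest with MPA (-0.65 log2, and -0.78 by its other probe set). MYC, which also drives such genes, had 791 in the control, 284 under MPA, 827 under guanosine and 779 under both. GABPA was at -0.33. PPARGC1A and NRF1 thus stood in opposite directions on the MPA array, and with guanosine present MPA gave -0.02 and -0.04.

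**Figure D5:**
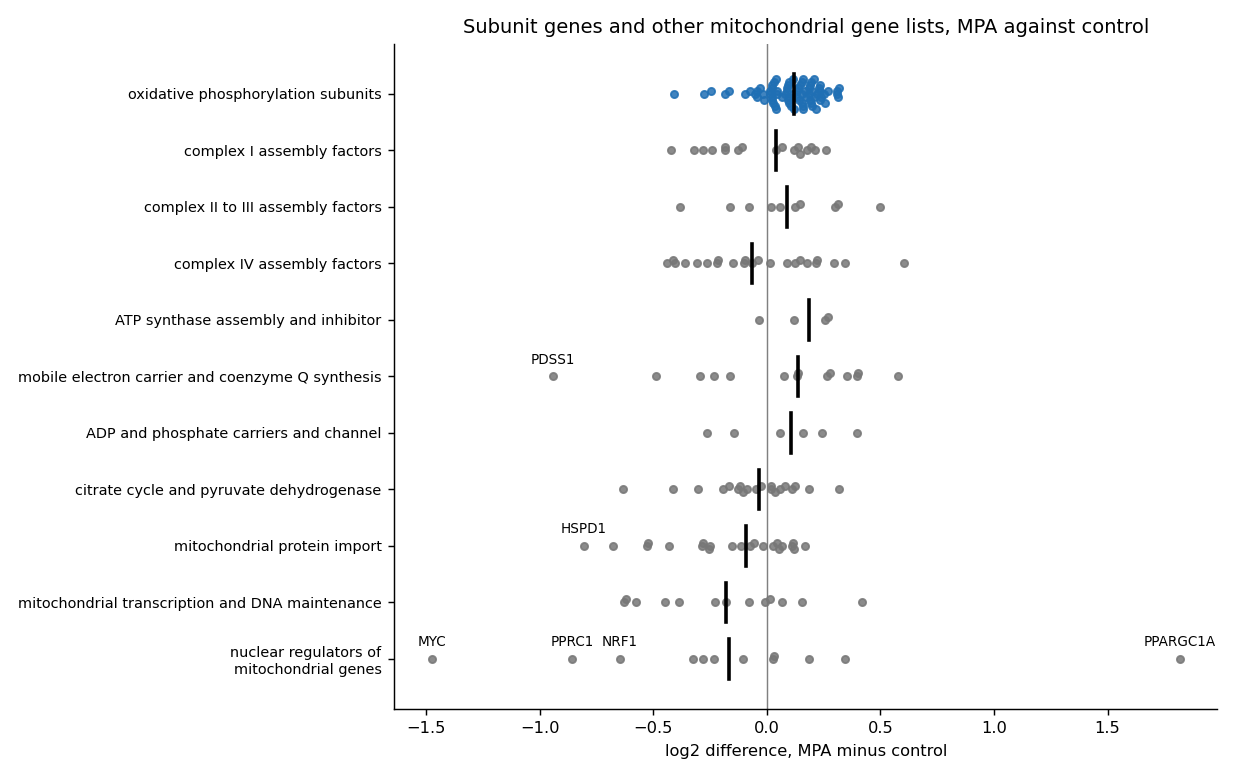
Log2 difference between the MPA and the control array (horizontal axis) for the 76 subunit genes and for 10 other lists of mitochondrial genes; each point is a gene above the floor and black bars are medians. The subunit genes form a narrow group around 0.12, while regulators run from MYC (-1.48) to PPARGC1A (1.82).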

How the data were processed

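RNA of 4 cultures of U87MG cells, 1 per condition, was hybridised to 1 PrimeView array each. Each deposited value is a linear-scale intensity of a probe set, summarised by RMA per the labels, which give no settings; the software is not given in the sources used here. RMA includes quantile normalisation, so a change in total mRNA per cell would not show. The log2 of each deposited intensity was taken here.

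Of 49395 probe sets, 102 are controls, 44988 others have 1 gene symbol in the platform table and 1832 have several; the rest are unnamed here. The probe set with the highest average log2 value stood for its gene. All 81 member symbols matched RefSeq by Entrez ID. A comparison used genes whose brighter array was at or above the median of all values (log2 5.98). The 6 comparisons were log2 differences between 2 arrays, counted at 1.2-fold, 1.5-fold and 2-fold; with 1 array per condition, no test was possible and no p-value is given. Percentages beside the members' counts are over all genes that passed the same floor. The counting was tested on simulated data.

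Named genes were the 3 highest and 3 lowest members of each comparison, any at 1.5-fold, and a set that was always named: the complex II genes, UQCRC1, UQCRC2, NDUFS1, NDUFV1, NDUFA4, COX4I1, COX5A, COX5B, ATP5F1A, ATP5F1B and the tissue forms; of each other list, the extremes and up to 2 more. Other members named for their role in a complex were picked with the values known. The members, roles and lists were chosen with earlier results of these data known. Alternatives were a median over each gene's probe sets, _x_at probe sets used only where a gene had no other, no floor, a floor at the 75th percentile (signal 244), cyclic loess on the log2 values (limma 3.58.1, 3 iterations), subtraction of each difference's median over all genes, log2 of the value plus 16, and a floor at log2 10, which was chosen after seeing the data. Analyses used R 4.3.3 and Python 3.11.15 with pandas 2.3.3.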

Additional observations from a re-analysis of the deposited data

Results flagged for a closer look

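For 2 subunit genes the MPA array and the array of both compounds lay on opposite sides of their matched array without MPA, with 1 array per condition, so the difference was not tested. COX6B2 was 0.27 log2 higher with MPA than in the control, and differed by -0.18 when MPA was added to guanosine. Its signals of 65.3 to 86.5 were close to the dimness floor. Its other probe sets, both below the floor, did not share the pattern: they gave -0.02 and -0.05 for MPA against control, and 0.05 and 0.23 for both against guanosine. UQCRHL was at -0.28 with MPA against control and at 0.25 with both compounds against guanosine. Its signals were well above the floor, and its probe set may also bind UQCRH.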

How the results depend on the processing

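No paired analysis was possible because each condition had 1 array. Of the extreme and always-named genes of each comparison, none at 1.2-fold or more changed sign in a setting where it passed the floor. Other members past 1.2-fold, and COXFA4 (formerly NDUFA4) outside the naming rule, were not checked. With a median over each gene's probe sets, COX6B2 fell below the floor and was not checked. Its other probe sets gave -0.02 and -0.05 for MPA against control, beside 0.27 for the one used. Of the medians, only that of complex V for guanosine against control changed sign, from -0.0068 to 0.014 with a median over each gene's probe sets. The members' median for MPA against control was between 0.10 and 0.18 over all settings, that for both against MPA between -0.12 and -0.04, and that for guanosine against control between 0.02 and 0.03. Cyclic loess moved most values. For MPA against control it gave a median of 0.18 with 16 members 1.2-fold higher and 1 lower, and 0.22, 0.21, 0.15 and 0.085 for complexes I, II, III and V. For both against MPA it gave a median of -0.12, 1 higher and 14 lower, and -0.15, -0.19, -0.13, -0.14 and -0.094 for complexes I to V. For MPA against guanosine it gave a median of 0.17 with 15 higher and 0 lower. With loess, 54.9% of all genes were higher for MPA against control, 21.6% and 19.1% by 1.2-fold up and down.

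With _x_at probe sets only where a gene had no other, SDHA fell below the floor and was not compared. Complex II, then SDHC and SDHD alone, was at 0.19 for MPA against control and -0.20 for both against MPA. Without a floor, complex IV was at 0.14 for MPA against control, 2 members were 1.2-fold higher and 2 lower for both against control, and 1 was lower for both against guanosine. With a median over each gene's probe sets, 1 member was 1.2-fold higher for guanosine against control, 2 were higher and 2 lower for both against control, 1 was lower for both against guanosine, and complex II was at -0.0023 for both against MPA. The floor at the 75th percentile left 0 lower for both against control. The floor at log2 10, chosen after seeing the data, left 1 lower for MPA against control, 0 lower for both against control, 1 higher for both against MPA and 1 lower for MPA against guanosine. The other settings changed no count by over 1.5 times and no median by over 0.05. Signal over background limits COX6A2 and COX6B2, which lie near the floor.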

Other observations

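Genes that shape the inner membrane and join the complexes into supercomplexes did not move as a group with MPA: of 12 above the floor, 7 were higher and 5 lower, with a median of 0.08. HIGD2A, which takes part in the assembly of supercomplexes, was the highest (0.66 log2) and had signals of 1158 in the control, 1825 under MPA, 1159 under guanosine and 1262 under both. PHB2, a prohibitin of the inner membrane, was the lowest (-0.59) and had 2108 in the control, 1398 under MPA, 1957 under guanosine and 2035 under both. HIGD1A (0.31), a relative of HIGD2A, was higher, and OPA1 (-0.50), which fuses inner membranes and keeps the folds of cristae, was lower, with other probe sets between -0.46 and -0.10. With guanosine present, MPA gave 0.12 for HIGD2A, 0.06 for PHB2 and 0.13 for OPA1.

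The subunit genes are short, with a median span of 9589 bases in RefSeq, beside 29327 over all genes compared. Across the 76 members, which share both arrays and are not independent replicates, Spearman's rho of the MPA against control difference was 0.07 with the span and -0.08 with the mean signal. Across 11201 genes it was -0.14 and -0.21. Epithelial and neuron markers gave values in both directions with MPA, KRT18 at -0.46 and EPCAM at 0.88, TUBB3 at -0.18 and SNAP25 at 0.71.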
